A study of Mus musculus with 8 samples.

Results

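The mitochondrial genome encodes 13 proteins, all of them subunits of the respiratory chain, and 10 of the 13 mRNAs are described here in the ileum of irinotecan-treated mice. The 10 are mt-Nd1, mt-Nd2, mt-Nd4, mt-Nd5 and mt-Nd6 of complex I, mt-Cytb of complex III, mt-Co1, mt-Co2 and mt-Co3 of complex IV, and mt-Atp6 of ATP synthase. They were taken by symbol from a table of 55487 genes, and all 10 were found and passed the filter on low values. The set and the contrast of mt-Atp6 with the other 9 were chosen by their normalized counts in the 4 WT and 4 Gsdme_KO libraries, so their differences between genotypes are a description: counts of calls from the fit over all genes stand beside the share called over all genes, and nothing is read from them. The study compared 4 wild-type mice (WT, Gsdme+/+) with 4 mice lacking Gsdme (Gsdme_KO, Gsdme-/-), each mouse giving 1 bulk ileum library made from poly(A) RNA with strand kept. Gsdme encodes gasdermin E, a membrane pore protein opened by caspase cleavage, and irinotecan, given to every mouse of both genotypes, is a topoisomerase I inhibitor that injures the intestine. Untreated mice were not analysed here, and the labels give no dose, time after treatment, age, sex, strain or way in which the allele was made. Libraries go by their column names: WT3, WT5, WT7, WT8 for wild type, then KO4, KO5, KO7, KO8.

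Mitochondrial DNA is transcribed from both strands into long precursors. Transfer RNAs lie between most of the coding genes, and cutting them out releases the ribosomal RNAs and mRNAs, most of which then receive a short poly(A) tail. Of the genes described, mt-Nd6 alone is encoded on the light strand, and the other 9 share the heavy-strand precursor. RNA levels from 1 precursor can still differ because each mRNA has its own stability. Mature enterocytes of the small intestine, which absorb nutrients, are rich in mitochondria. The nuclear genome also holds copies of mitochondrial DNA, which matter for any count made from short reads, because a read that matches 2 places equally well cannot be assigned to one.

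The members differed in how closely such copies match them, so the sequences come first. Each mRNA was aligned to all annotated mouse transcripts (GENCODE M21, build GRCm38), and a stretch of chromosome 1 from 24611535 to 24616197, 4663 bases long, held 7 annotated copies. In that stretch mt-Atp6 matched the pseudogene Atp6-ps (ENSMUSG00000100862, chromosome 1, 24613974 to 24614651, minus strand) at 100% identity over 678 of its 681 bases. Likewise, mt-Co2 matched Gm28661 (ENSMUSG00000102070, chromosome 1, 24614885 to 24615565, minus strand) at 100% over 681 of 684 bases, and mt-Co3 matched Gm28437 (ENSMUSG00000101111, chromosome 1, 24613189 to 24613971, minus strand) at 100% over 783 of 784 bases. A stretch of 60 bases from the middle of each shows why reads there carry no mark of origin. Sequences are written 5′ to 3′ on the gene's own strand, from the GENCODE transcripts, and capitals would mark a base that differs between the members of a pair.
mt-Atp6 (chrM:8236-8295, plus strand): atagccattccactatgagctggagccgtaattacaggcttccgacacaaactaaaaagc
Atp6-ps (chr1:24614283-24614342, minus strand): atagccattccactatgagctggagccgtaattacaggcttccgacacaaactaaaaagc
mt-Co2 (chrM:7323-7382, plus strand): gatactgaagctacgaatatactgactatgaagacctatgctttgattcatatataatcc
Gm28661 (chr1:24615196-24615255, minus strand): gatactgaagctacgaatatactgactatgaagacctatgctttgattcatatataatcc
mt-Co3 (chrM:8968-9027, plus strand): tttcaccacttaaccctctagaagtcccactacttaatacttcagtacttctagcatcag
Gm28437 (chr1:24613551-24613610, minus strand): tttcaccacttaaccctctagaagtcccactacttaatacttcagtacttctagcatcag

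No base differed in these 3 pairs. The closest annotated copies of mt-Cytb and mt-Nd6 differed at more bases and are shown for contrast. Gm11410 matched mt-Cytb at 92.9% over 1142 bases, and Gm11408 matched mt-Nd6 at 93.6% over all 519 bases.
mt-Cytb (chrM:14687-14746, plus strand): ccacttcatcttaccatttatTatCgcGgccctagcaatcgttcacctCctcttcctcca
Gm11410 (chr4:80004531-80004590, plus strand): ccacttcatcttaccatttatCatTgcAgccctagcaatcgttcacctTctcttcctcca
mt-Nd6 (chrM:13782-13841, minus strand): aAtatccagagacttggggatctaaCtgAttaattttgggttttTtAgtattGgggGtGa
Gm11408 (chr4:80003626-80003685, minus strand): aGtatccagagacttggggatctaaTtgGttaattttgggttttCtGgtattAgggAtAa

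In the stretches shown, 4 of 60 bases differed between mt-Cytb and Gm11410, and 8 of 60 between mt-Nd6 and Gm11408. Over whole genes, the share of 100-base windows with an identical match in another annotated transcript was 99.5% for mt-Atp6, 99.5% for mt-Co2 and 99.9% for mt-Co3. For mt-Nd4 it was 60.8%, because the first 876 of its 1378 bases matched Gm28439 without a difference. For mt-Co1 it was 30.8%, from a chromosome 1 copy, Gm29216, that shared 483 bases at 99.8% and a chromosome 2 copy, Gm13340, that shared all 1545 bases at 97.6%. The share was 3.19% for mt-Nd2 and 0 for mt-Nd1, mt-Nd5, mt-Nd6 and mt-Cytb. The length of the reads is not given in the sources used here, and with windows of 50 bases the share was 51.1% for mt-Co1, 8.19% for mt-Nd2 and 7.61% for mt-Nd5, while mt-Atp6, mt-Co2 and mt-Co3 stayed at 99.5% or more. The search covered annotated transcripts only, so copies in unannotated sequence were not counted.

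Levels per kilobase were high for 6 of the genes and low for the other 4. Levels of different genes are compared here as normalized counts (reads divided by 1 size factor per library) per kilobase of gene, over all 8 libraries. The highest was mt-Co1, the catalytic core of cytochrome c oxidase, at 237458 ± 30335 per kilobase (SD, n = 8). Below it came mt-Cytb, the cytochrome b of complex III, at 108106 ± 10780, and mt-Nd1, at 80529 ± 8117 per kilobase. The next 3 complex I subunits were mt-Nd2 at 38114 ± 3316, mt-Nd4 at 36105 ± 4039 and mt-Nd5 at 28955 ± 3225 per kilobase. All 6 of these genes lie on the heavy strand.

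A 7.003-fold step separated mt-Nd5 from mt-Nd6, the light-strand gene, at 4135 ± 613 per kilobase. In libraries made from poly(A) RNA, such levels depend on the tail of each RNA as well as on its amount. The part of this in the step was not tested. Below mt-Nd6 stood the 3 heavy-strand genes with a full identical copy. They were mt-Co2, which carries the copper site that takes electrons from cytochrome c, at 2650 ± 356, mt-Co3, a structural core subunit of complex IV, at 1451 ± 450, and mt-Atp6, which forms part of the proton channel of ATP synthase, at 988 ± 444 per kilobase. The level of mt-Atp6 was 0.416% of that of mt-Co1 per kilobase, that of mt-Co3 0.611% and that of mt-Co2 1.12%, although all 4 mRNAs come from 1 precursor. The order of neighbours was the same in 8 of 8 libraries except between mt-Nd2 and mt-Nd4, which kept it in 6 of 8, and between mt-Co3 and mt-Atp6, which kept it in 7 of 8. Ranges over libraries did not overlap between mt-Co1 and mt-Cytb, between mt-Nd1 and mt-Nd2, or between mt-Nd5 and mt-Nd6, and overlapped for the other 6 neighbouring pairs.

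**Figure D1:**
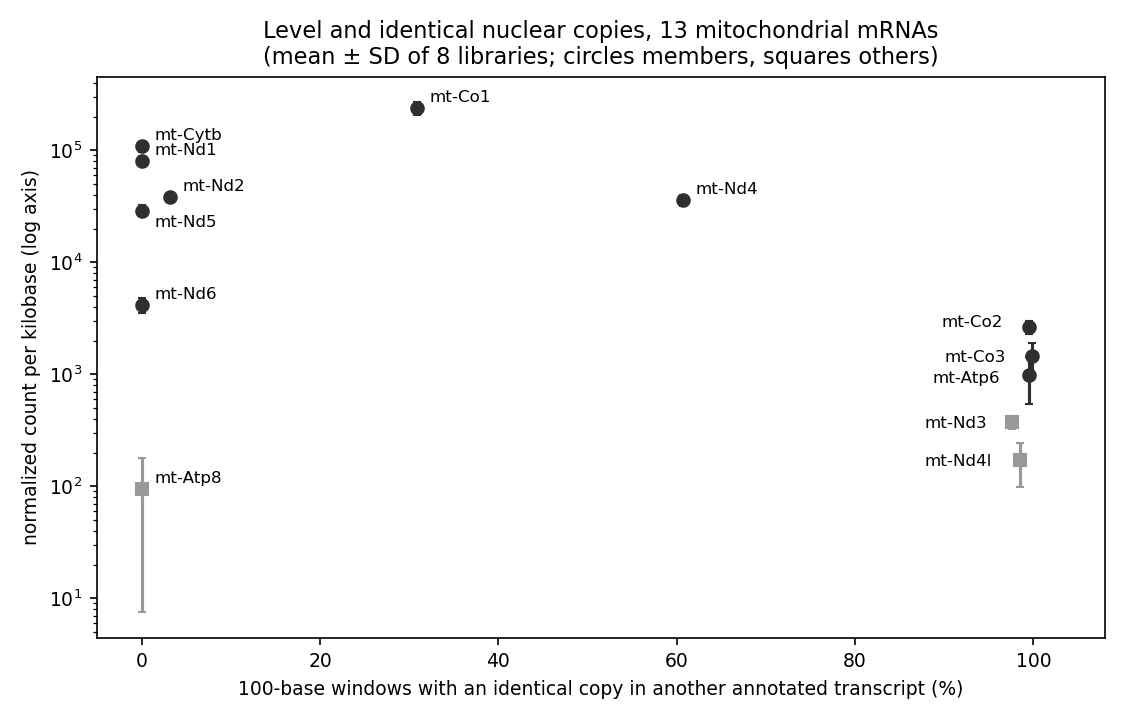
Normalized count per kilobase (log axis, mean ± SD of 8 libraries) of the 13 mitochondrial mRNAs against the percentage of their 100-base windows that occur unchanged in another annotated transcript. The 5 genes with 97.6% or more of such windows sit at or below 2650 per kilobase. By contrast mt-Nd4 at 60.8% and mt-Co1 at 30.8% sit among the high genes. mt-Atp8 is low with no such window, but unannotated sequence was not searched for a copy of it.

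The 3 other mitochondrial mRNAs were low too. mt-Nd3 and mt-Nd4l, small complex I subunits whose copies in the same chromosome 1 stretch gave 97.6% and 98.5% identical windows, were at 374 ± 52.7 and 172 ± 72.8 per kilobase. mt-Atp8, whose gene overlaps the start of mt-Atp6 by 43 bases, had no identical window among annotated transcripts and was lower still, at 93.8 ± 86.4 per kilobase. On the mitochondrial genome it starts between mt-Co2 and mt-Atp6, whose copies both lie in that chromosome 1 stretch. Unannotated sequence of the stretch was not searched, so mt-Atp8 cannot be taken as a gene without an identical copy. It is the shortest of the 13 mRNAs, at 204 bases. How reads with more than 1 match, or with more than 1 overlapping gene, were counted is not given in the sources used here, and the part of either in the low levels was not tested.

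The nuclear copies themselves held reads. Of 28 annotated copies of the 13 mRNAs, 9 passed the filter of a mean of at least 10 normalized counts. Of these 9, 0 were called different between genotypes by limma, edgeR or DESeq2 (0.00612%, 0.00612% and 0.0599% of all tested genes). An unadjusted p under 0.05 was met by 0 of the 9 with each tool. Over all tested genes it was met by 4.38% with limma, 6.01% with edgeR and 6.97% with DESeq2. Atp6-ps had 428 (WT3), 347 (WT5), 422 (WT7) and 430 (WT8) normalized counts over the WT libraries, against 383 (KO4), 483 (KO5), 535 (KO7) and 702 (KO8) in Gsdme_KO. Its level per kilobase, 688 ± 164, was of the same order as that of mt-Atp6. Normalized counts of Gm28661 were 487 ± 84.4 in WT against 419 ± 39.8 in Gsdme_KO, and those of Gm28437 were 339 ± 58.0 against 333 ± 77.1 (SD, n = 4 per genotype). Gm28439, the copy of the first part of mt-Nd4, had 114 ± 7.74 and 97.7 ± 14.3, and mt-Nd4 exceeded it by 417-fold to 558-fold in the 8 libraries. The mt-Nd4 count covers all 1378 bases, of which only the first 876 match Gm28439. This ratio therefore does not show how reads of the identical part were assigned. The closest copies of mt-Cytb and mt-Nd6 were near or at 0, with 1 read in 1 library for Gm11410 and none in any library for Gm11408. Since the sequences are identical over nearly their whole length, reads of mt-Atp6, mt-Co2 and mt-Co3 and reads of their chromosome 1 copies cannot be told apart by sequence, and the 3 counts are uncertain in that respect. The same holds for the identical parts of mt-Nd4 and mt-Co1, so their levels per kilobase are uncertain too.

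Against this, the genotypes were compared gene by gene. Normalized counts are used from here on, and differences are Gsdme_KO minus WT in log2(normalized count + 1). Of the 10 genes, 5 had a positive and 5 a negative log2 difference (6 and 3 with quantile normalization, where mt-Co1 was at 0), the median was -0.03, and the values ran from -0.19 for mt-Nd6 to 0.52 for mt-Atp6. The median over all 16352 tested genes was 0.00. None of the 10 was called at an adjusted p under 0.05 by limma, edgeR or DESeq2, against 0.00612%, 0.00612% and 0.0599% of all tested genes. At an unadjusted p under 0.05 it was 0 of 10 with each tool, against 4.38% of all genes for limma, 6.01% for edgeR and 6.97% for DESeq2. The libraries of the genotypes overlapped for 10 of 10, and did not overlap for 2.5% of all tested genes.

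**Figure D2:**
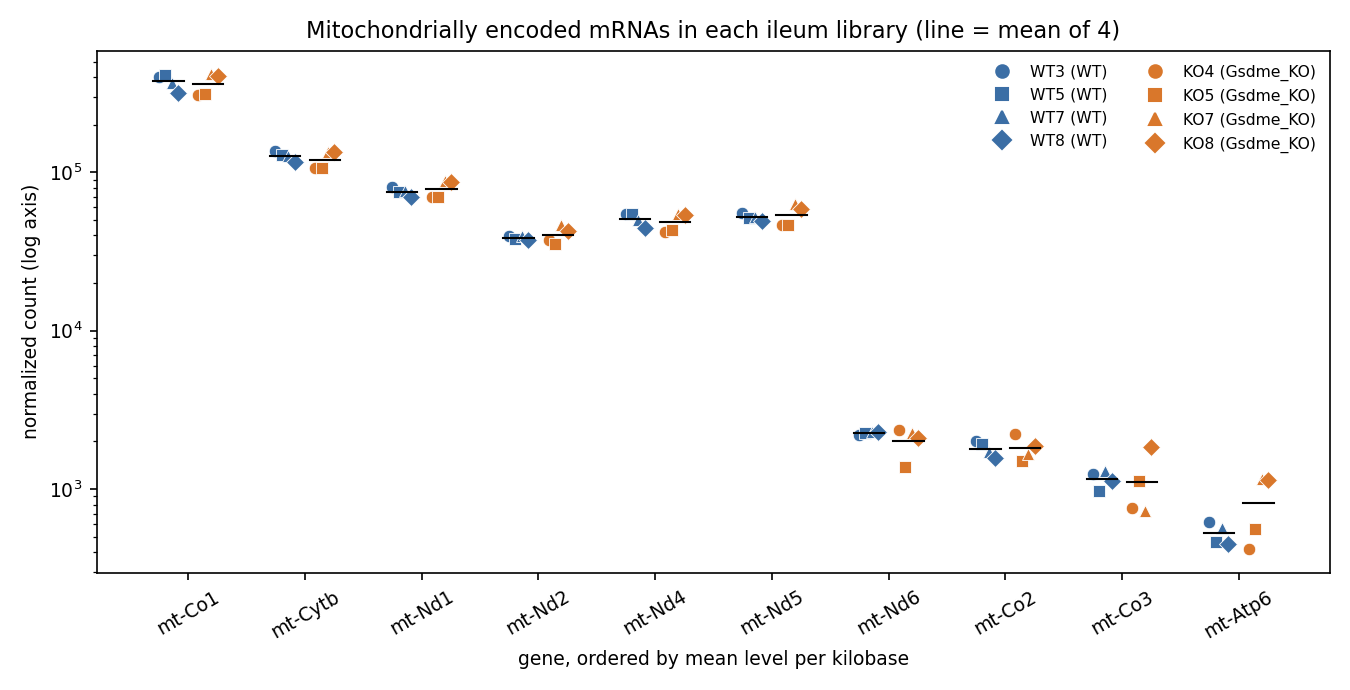
Normalized counts (log axis) of the 10 genes in each library, with blue for WT, orange for Gsdme_KO and a line at each mean of 4. The 6 genes on the left keep a narrow spread in which KO4 and KO5 are low and KO7 and KO8 high, and mt-Atp6 on the right shows KO7 at 1166 and KO8 at 1134 above the other 6 libraries.

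Complex I passes electrons from NADH to ubiquinone and pumps protons, and its membrane arm is built around the subunits encoded in mitochondria. mt-Nd1 (ENSMUSG00000064341, chromosome M, 2751 to 3707), which lines the ubiquinone site, had 81081 (WT3), 74866 (WT5), 75712 (WT7) and 69996 (WT8) normalized counts over the WT libraries, against 69528 (KO4), 69540 (KO5), 88691 (KO7) and 87115 (KO8) in Gsdme_KO. KO4 and KO5 lay just below the WT range and KO7 and KO8 above it, which left a log2 difference of 0.05 (SE 0.17). mt-Nd2 (ENSMUSG00000064345, 3914 to 4951), an antiporter-like subunit of the membrane arm, had 39832, 38194, 39484 and 37396 in WT in the same order, and 37612, 35251, 46333 and 42398 in Gsdme_KO. Here KO4 fell inside the WT range, KO5 below it and the other two above it, with a log2 difference of 0.05 (SE 0.13).

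mt-Nd4 and mt-Nd5 are the other antiporter-like subunits described. mt-Nd4 (ENSMUSG00000064363, 10167 to 11544) had 54409, 54519, 50267 and 44232 in WT and 42202, 43448, 54920 and 54022 in Gsdme_KO, a log2 difference of -0.07 (SE 0.16). mt-Nd5 (ENSMUSG00000064367, 11742 to 13565) had 55661, 51180, 52309 and 49496 in WT and 46197, 46247, 62767 and 58660 in Gsdme_KO, a log2 difference of 0.02 (SE 0.16). In both genes KO4 and KO5 were the 2 lowest of the 8 libraries and KO7 was the highest.

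mt-Nd6 (ENSMUSG00000064368, 13552 to 14070, minus strand), whose last 14 bases overlap the end of mt-Nd5 on the other strand, did not follow this order. Its WT libraries were within a narrow band at 2212, 2256, 2288 and 2301, a coefficient of variation of 1.76%, whereas KO4 had 2360, KO5 1382, KO7 2276 and KO8 2094. KO4 was thus the highest of all 8 and KO5 the lowest by far. The log2 difference of -0.19 (SE 0.16) rested on KO5, since without that library it was -0.02. The ratio of mt-Nd5 to mt-Nd6 ran from 19.6 in KO4 to 33.5 in KO5, against 21.5 to 25.2 in WT. The strand setting of the counting is not given in the sources used here, so how reads of mt-Nd5 or other heavy-strand RNA entered the mt-Nd6 count is not known.

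Complex III hands electrons from ubiquinol to cytochrome c, and mt-Cytb is its only subunit made in mitochondria. mt-Cytb (ENSMUSG00000064370, 14145 to 15288) had 135534, 128556, 126777 and 116945 in WT and 105760, 106730, 135225 and 133860 in Gsdme_KO. Its log2 difference was -0.08 (SE 0.19), and again KO4 and KO5 were below every WT library while KO7 and KO8 lay within the WT range.

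Complex IV reduces oxygen. mt-Co1 (ENSMUSG00000064351, 5328 to 6872) had 399948, 412054, 366276 and 318687 in WT and 307392, 313567, 414351 and 402713 in Gsdme_KO, a log2 difference of -0.06 (SE 0.29). WT8 was low along with KO4 and KO5. The ratio of mt-Co1 to mt-Cytb stayed between 2.73 and 3.21 in the 8 libraries. mt-Co2 (ENSMUSG00000064354, 7013 to 7696) had 2002, 1920, 1718 and 1567 in WT and 2242, 1506, 1678 and 1867 in Gsdme_KO, a log2 difference of 0.01 (SE 0.13). For this gene KO4 was the highest library and KO5 the lowest. mt-Co3 (ENSMUSG00000064358, 8607 to 9390) had 1238, 972, 1304 and 1131 in WT and 763, 1118, 727 and 1844 in Gsdme_KO. Its Gsdme_KO libraries spread 2.53-fold, with KO4 and KO7 below all WT libraries and KO8 above, and the log2 difference was -0.16 (SE 0.28). Leaving out KO8 made it -0.44.

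ATP synthase uses the proton gradient to make ATP. mt-Atp6 (ENSMUSG00000064357, 7927 to 8607) had 616 (WT3), 467 (WT5), 571 (WT7) and 449 (WT8) normalized counts over the WT libraries, with at most 543 reads in a library, against 419 (KO4), 561 (KO5), 1166 (KO7) and 1134 (KO8) in Gsdme_KO, from 455 to 1243 reads. KO4 was the lowest of the 8 libraries, KO5 lay inside the WT range, and KO7 and KO8 lay well above it. The means were 526 ± 80.9 for WT and 820 ± 386 for Gsdme_KO (SD, n = 4 per genotype), a ratio of 1.56 and a log2 difference of 0.52 (SE 0.33). It had the largest coefficient of variation of the 10 genes over the 8 libraries, 44.9%, against 31.0% for mt-Co3 and 8.70% to 14.8% for the other 8. Leaving out KO7 gave a log2 difference of 0.31, leaving out KO4 gave 0.80, and leaving out KO4 and KO5 together gave 1.14.

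**Figure D3:**
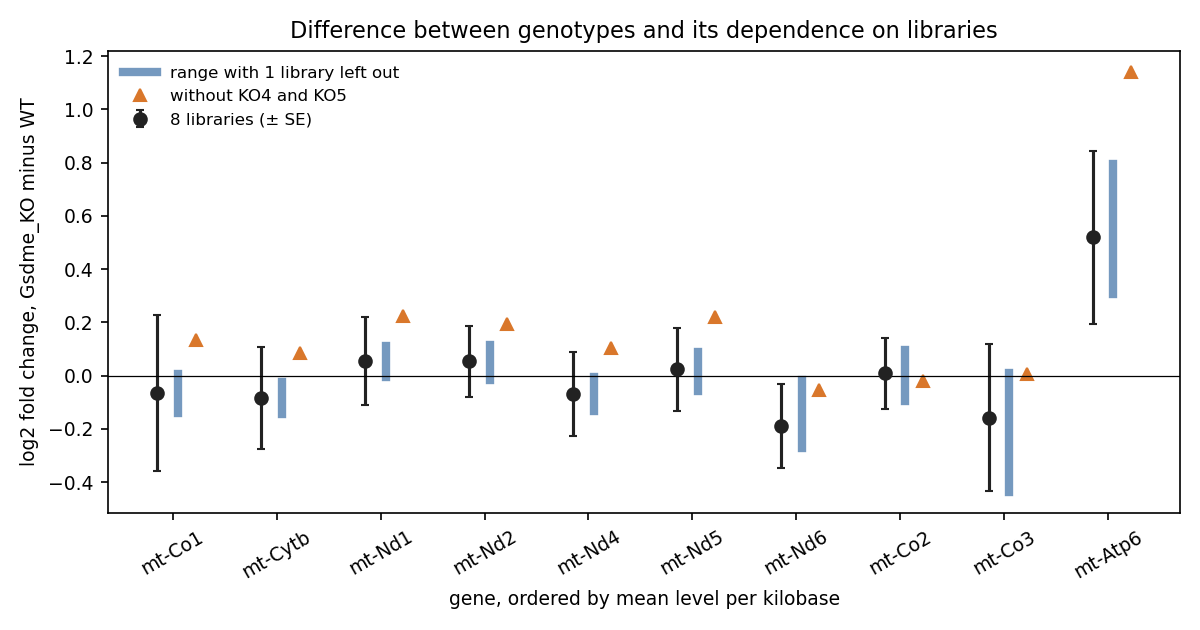
Log2 difference (Gsdme_KO minus WT) of each gene over 8 libraries with its standard error, its range when 1 library is left out, and its value without KO4 and KO5. The values of 9 genes lie between -0.19 and 0.05, and mt-Atp6 moves from 0.52 with 8 libraries to 1.14 without KO4 and KO5.

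Set against the other 9 genes of the same library, mt-Atp6 showed the same split. The log2 ratio of mt-Atp6 to the mean of the other 9 was -5.30 (WT3), -5.62 (WT5), -5.34 (WT7) and -5.56 (WT8) in WT, and -5.62 (KO4), -5.11 (KO5), -4.33 (KO7) and -4.49 (KO8) in Gsdme_KO. The genotype means were -5.45 ± 0.16 and -4.89 ± 0.59 (SD, n = 4 per genotype), a difference of 0.57, with KO4 near the lower edge of the WT libraries and the other 3 above them. Measured against mt-Co2 and mt-Co3, the other genes with a full identical copy, the difference was 0.59, and against the 7 without one it was 0.56.

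The copy on chromosome 1 moved in the same direction as mt-Atp6. Summed with Atp6-ps, the counts were 1044, 813, 992 and 879 in WT and 803, 1044, 1701 and 1836 in Gsdme_KO, and the log2 ratio to the other 9 genes then differed by 0.50 between genotypes. KO7 and KO8 again stood above the other 6 libraries. The ratio of mt-Atp6 to Atp6-ps was 1.44, 1.35, 1.35 and 1.04 in WT and 1.09, 1.16, 2.18 and 1.62 in Gsdme_KO, so the 2 rows did not keep a fixed ratio. Over the 8 libraries log2 values of mt-Atp6 and Atp6-ps had a Pearson r of 0.86, those of mt-Co3 and Gm28437 an r of 0.78, and those of mt-Co2 and Gm28661 an r of 0.29, in pairs that share sequence and library.

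**Figure D4:**
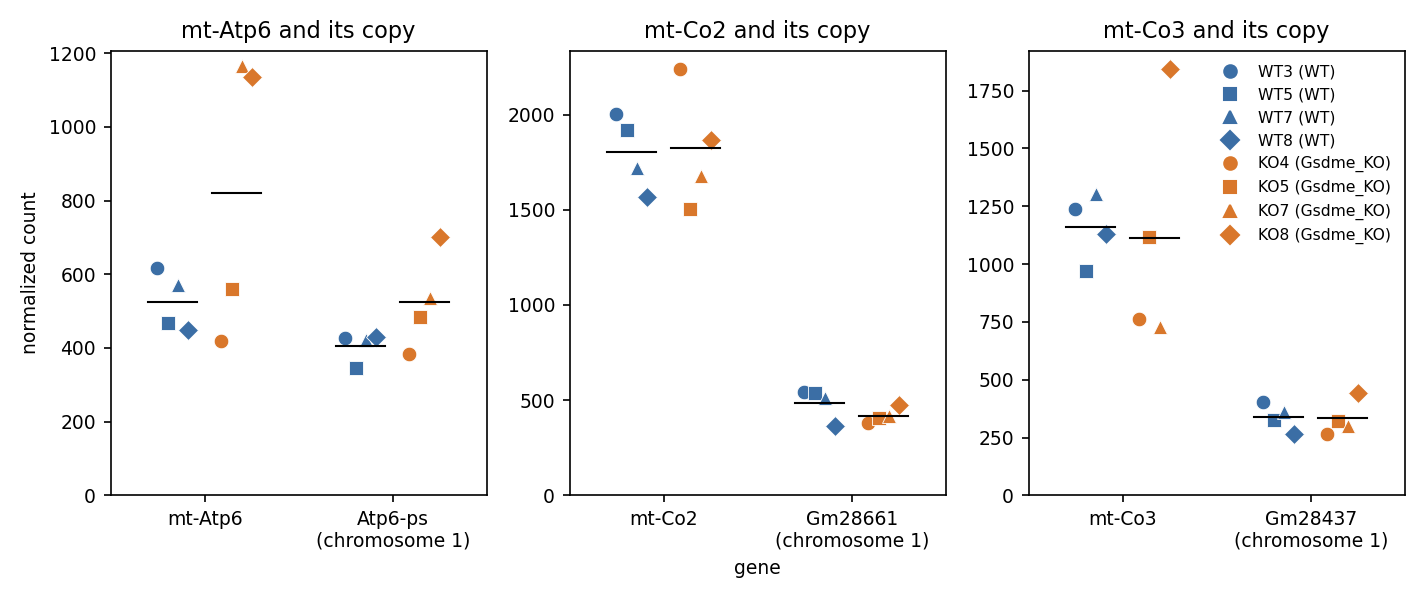
Normalized counts of mt-Atp6, mt-Co2 and mt-Co3 beside those of their identical copies on chromosome 1, by library, with a line at each mean of 4. In the left panel KO7 and KO8 are highest for mt-Atp6 and KO8 is highest for Atp6-ps, at 702; in the other panels no such split of KO7 and KO8 from WT is seen.

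The members did not all vary together across libraries. The 6 heavy-strand genes without a full identical copy moved together, with Pearson r from 0.724 to 0.997 (median 0.87) for their 15 pairs over the 8 libraries, which share depth and normalization. The r of mt-Nd4 with mt-Co1 was the highest, and that of mt-Nd2 with mt-Nd4 the lowest. mt-Nd6 had r from 0.27 to 0.46 with the 6, mt-Co2 from -0.01 to 0.17, mt-Co3 from -0.06 to 0.31 and mt-Atp6 from 0.63 to 0.92. The values for mt-Atp6 thus overlapped those of the 15 pairs. These are descriptions over 8 libraries from 2 genotypes.

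The common movement of the 6 was small, and the enterocyte markers of the libraries moved with it. Relative to the WT mean, their mean log2 level was 0.09 (WT3), 0.04 (WT5), 0.00 (WT7), -0.13 (WT8), -0.19 (KO4), -0.19 (KO5), 0.19 (KO7) and 0.13 (KO8). A score over 12 mature enterocyte markers, the mean of their log2 levels, was 0.39, 0.28, 0.09 and -0.76 in WT and -2.10, -1.29, 0.43 and -0.07 in Gsdme_KO on the same scale. KO4, KO5 and WT8 were low in both, and the r between them was 0.88 over 8 libraries and 0.79 over the 6 without KO4 and KO5. The enterocyte markers included Fabp6 and Slc10a2, which mark ileum, and none of the 12 was at 0 in a library. Their summed level ran from 334556 to 635402 in WT and from 177294 to 620822 in Gsdme_KO.

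KO4 and KO5 stood apart in B cell and T cell markers as well, but not together in smooth muscle or Paneth and crypt markers. The 10 B cell and follicle markers summed to between 249 and 372 normalized counts in WT and to 339 in KO7 and 281 in KO8, but to 10894 in KO4 and 6141 in KO5. Of these 10, Cr2 was at 0 in WT7 and Blk at 0 in KO7, and the other 8 were above 0 in every library. The 10 T cell markers summed to 666 to 1210 in WT against 3423 for KO4, 2079 for KO5, 1212 for KO7 and 1262 for KO8. In bulk tissue, fewer cells of a type and less RNA per cell cannot be told apart, and the part of these markers in the members' levels was not tested. Without KO4 and KO5, 8 of the 10 members had a positive log2 difference and 2 a negative one, the median was 0.12, and 0 were called by limma, which called 0.00617% of 16212 genes. This setting was chosen after the data were seen, and of Gsdme_KO it keeps only KO7 and KO8, the libraries where mt-Atp6 was highest. Its unadjusted p-values are therefore not reported here, and nothing is read from its counts.

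**Figure D5:**
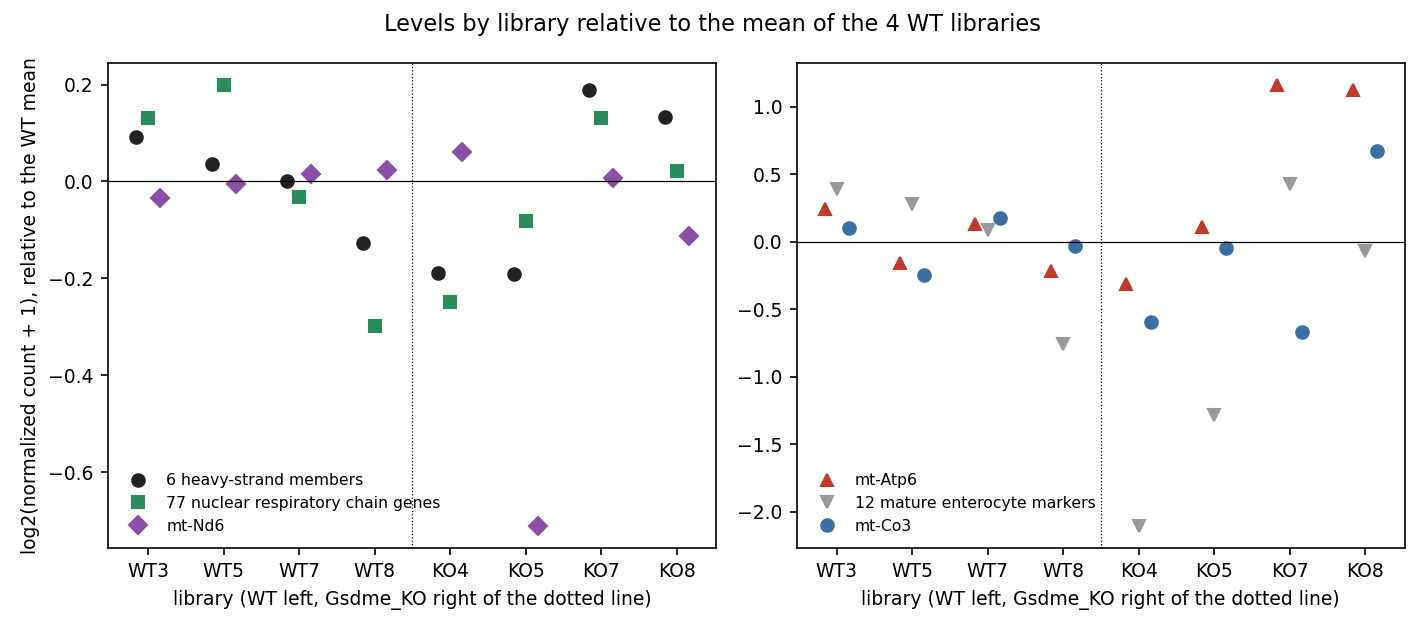
Log2 level by library relative to the mean of the 4 WT libraries, for the mean of 6 heavy-strand genes, 77 nuclear respiratory chain genes and mt-Nd6 (left), and for mt-Atp6, 12 mature enterocyte markers and mt-Co3 (right; the scales differ). On the left the 6 genes and the nuclear genes are low in WT8 and KO4. In KO5 the 6 genes are low, the nuclear genes are at -0.08 and mt-Nd6 is low at -0.71. On the right mt-Atp6 is above 1 in KO7 and KO8 only.

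Most chain subunits are encoded in the nucleus, and these were read from the same fit. Of 77 nuclear respiratory chain genes tested, 0 were called by limma, edgeR or DESeq2 (0.00612%, 0.00612% and 0.0599% of all genes). None of the 77 had an unadjusted p under 0.05 with any of the 3 tools (4.38% of all genes with limma, 6.01% with edgeR, 6.97% with DESeq2). Of the 77, 20 had a positive and 57 a negative log2 difference, and the median was -0.04. Over all tested genes, 8275 were positive and 8077 negative. The 77 genes were measured in the same 8 libraries, so their signs are not separate observations. By complex, 11 of 36 genes were positive in complex I, 0 of 4 in complex II, 0 of 9 in complex III, 4 of 11 in complex IV and 5 of 17 in complex V. Uqcrc1, a core protein of complex III, had a log2 difference of -0.03 (SE 0.12), and Cox4i1, a regulatory subunit of complex IV, had -0.04 (SE 0.14). Atp5f1b, the catalytic beta subunit of ATP synthase, averaged 27387 ± 2471 for WT and 25715 ± 2632 for Gsdme_KO, a log2 difference of -0.09 (SE 0.13).

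The direction of these small differences depended on which libraries were kept. Without KO4 and KO5, 73 of the 77 were positive, with a median of 0.08, against 0.01 for the tested genes as a whole. With 1 library left out, the median was 0.00 without WT3, 0.02 without WT5 and 0.02 without KO4. It was negative without each of the others, from -0.03 without KO5 to -0.14 without WT8. The mean log2 level of the 77 genes was 0.13, 0.20, -0.03 and -0.30 in WT and -0.25, -0.08, 0.13 and 0.02 in Gsdme_KO, and its r with the 6 heavy-strand genes was 0.79 over 8 libraries and 0.77 over the 6 without KO4 and KO5. The mitochondrial and nuclear parts of the chain were thus both low in WT8 and KO4, as were the enterocyte markers. In KO5 the 6 mitochondrial genes and the enterocyte markers were low, whereas the nuclear genes, at -0.08, were near WT7, at -0.03.

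Genes that make and maintain mitochondrial RNA were also measured. Of 51 listed genes of mitochondrial DNA transcription and replication, RNA processing and decay, and biogenesis, 49 were tested. Of these, 0 were called by any of the 3 tools, against 0.00612% of all tested genes for limma and edgeR and 0.0599% for DESeq2. An unadjusted p under 0.05 was met by 0 of the 49 with each tool. Over all genes it was met by 4.38% with limma, 6.01% with edgeR and 6.97% with DESeq2. Among the 49, 16 were positive and 33 negative, with a median of -0.06, against 8275 positive and 8077 negative over all tested genes. Tfam, which packages mitochondrial DNA and starts its transcription, averaged 680 ± 90.6 for WT and 683 ± 63.2 for Gsdme_KO, and Polg, the mitochondrial DNA polymerase, 693 ± 56.7 and 708 ± 70.5 (SD, n = 4 per genotype). Lrpprc, which stabilises mitochondrial mRNAs, had 1064 ± 85.8 and 1076 ± 55.9. Ppargc1a, a coactivator of mitochondrial biogenesis, was lowest in KO4 at 62.7 and in KO5 at 228, against 287 to 479 in WT, and its log2 difference of -0.87 (SE 0.50) was not called.

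As a share of the library, mitochondrial RNA had nearly the same mean in both genotypes, with a wider spread in Gsdme_KO. All 37 mitochondrial genes took 4.07% ± 0.15 of the reads of WT and 4.07% ± 0.49 of those of Gsdme_KO (SD, n = 4 per genotype). Single libraries ran from 3.64% in KO5 (95% exact binomial interval 3.64 to 3.65, counting error only) to 4.57% in KO8 (4.56 to 4.58). KO4, at 3.65%, and KO5 were below all WT libraries, and KO7, at 4.42%, and KO8 above. The 10 members made up 94.4% to 96.8% of the mitochondrial reads, and mt-Co1 alone 47.2% to 51.3%, whereas mt-Co2, mt-Co3 and mt-Atp6 together made up 0.418% to 0.597%. The 2 ribosomal RNAs took 3.20% to 5.52%. Normalized counts of mt-Rnr1 averaged 11986 ± 2239 for WT and 11895 ± 2765 for Gsdme_KO, and those of mt-Rnr2 18140 ± 4727 and 16898 ± 3788. In a library made by poly(A) selection, these levels depend on the tails of each RNA as well as on its amount.

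By Pearson correlation over the 8 libraries, among 14134 tested nuclear genes other than gene models and pseudogenes, the 3 whose pattern was most like the mean of the 9 members other than mt-Atp6 were Smpd5 (r 0.97), Fyb2 (0.96) and Tle2 (0.96). The 3 most like mt-Atp6 were Coro6 (0.94), Klf11 (0.92) and Cirbp (0.92). Cirbp, whose protein binds RNA and is induced by cold, was at 658, 475, 540 and 525 over WT and 445, 639, 860 and 737 over Gsdme_KO, highest in KO7 and KO8 like mt-Atp6. With 8 libraries and that many genes searched, such ranks describe these libraries only.

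The level of the targeted gene and the depth of the libraries are given for reference. Gsdme (ENSMUSG00000029821) averaged 2851 ± 536 normalized counts for WT and 349 ± 242 for Gsdme_KO (SD, n = 4 per genotype), lower in 4 of 4 libraries than in any WT library, a log2 difference of -3.32 (two-sided exact permutation test, p = 0.0286, the smallest that 70 assignments allow). In the fit over all genes, limma and edgeR did not call it (adjusted p = 0.786 and 0.812), DESeq2 did (adjusted p = 2.12e-07), and limma did without KO4 and KO5 (adjusted p = 0.0275). A count of 0 called by limma or edgeR in these 8 libraries therefore does not show that genes were unchanged. It was highest among Gsdme_KO libraries in KO7, at 634, and KO8, at 464, the libraries with high mt-Atp6, and 113 in KO4 and 187 in KO5. The part of this in the members' levels was not tested. Libraries held 15617407 to 23437343 reads in genes, so that mt-Nd6 rested on at least 1841 reads in each library and mt-Co3 on at least 597.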

How the data were processed

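Ileum poly(A) RNA of 8 mice was sequenced, with strand-specific libraries per the labels' protocols. Build GRCm38 and the tools HISAT2, SAMtools, featureCounts, Subread and DESeq2 are named per the submitters' processing notes. Tool versions, annotation release, strand setting, read length and how reads with several matches were handled: not given in the sources used here. A table of normalized signal was deposited, holding read counts per gene that the authors had divided by a size factor. Reads could be recovered from it, since 100% of values in each library were whole multiples of 1 step, within 0.01 reads. Column names gave the genotype only and could not be tied to the label numbers 1 to 4; the labels name separate mice.

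Genotypes were tested with limma-trend (limma 3.58.1, R 4.3.3) on log2(normalized count + 1) for 16352 genes with a mean of at least 10, with Benjamini-Hochberg adjustment and a threshold of 0.05. Fold changes on this scale understate the change of low genes. The edgeR 4.0.16 quasi-likelihood test and the DESeq2 1.42.0 Wald test were run on the recovered reads, and edgeR called 1 gene. Only the limma-trend step was also run on simulated reads, whose spread was taken from these data. Copies were searched with blastn 2.17.0 (at least 100 bases at 80% identity or more) in GENCODE M21 transcripts, in place of a genome. Genes named are the 10 members, the other mitochondrial mRNAs and ribosomal RNAs, sequence copies, the 2 genes of highest mean in a list (some only counted, and 1 not reported here), the 3 most alike by correlation, and Gsdme. Outside this rule, Ppargc1a, Cr2 and Blk are named because of values already seen, and Fabp6 and Slc10a2 as ileum markers of their list. The members, lists and tests were chosen with earlier results of these data known. Alternatives were other pseudocounts, filters, scalings and tools, and libraries left out; leaving out KO4 and KO5 together, and the 2 other reference sets for mt-Atp6, were chosen after the data were seen. All 191 list entries matched the table.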

Additional observations from a re-analysis of the deposited data

How the results depend on the processing

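The number of genes called over the whole table was 1, 9 with DESeq2 on recovered reads, and 0 to 1 when 1 library was left out (0 without WT3, WT5, WT7, KO4, KO5, KO7 or KO8, each in turn). The counts of called members, of called nuclear chain genes and of called machinery genes were 0 under each of 18 alternatives. Unadjusted p-values without KO4 and KO5 are not reported here, because that setting was chosen after the data were seen. Without KO4 and KO5, the median log2 difference of the members was 0.12, the mt-Atp6 ratio to the other 9 differed by 1.04, the mitochondrial share differed by 0.422 percentage points, and the log2 difference of Gsdme was -2.37 (exact permutation p = 0.0667, the smallest that 2 against 4 libraries allow). With 1 library left out, the mt-Atp6 ratio difference ran from 0.38 to 0.81, the members' median from -0.09 to 0.04 and Gsdme from -3.71 to -2.88. Quantile normalization gave 6 positive and 3 negative members, with mt-Co1 at 0 and mt-Nd5 at 0.20, and shifted the median of all genes by -0.04; the cause was not tested. The other scalings kept 5 and 5. Leaving out WT8, KO7 or KO8 gave 3 positive and 7 negative members, and leaving out WT7 gave 4 and 6. Depth limits mt-Atp8, with 6 to 81 reads per library. No paired analysis was possible because the columns carry no replicate numbers that can be tied to those of the labels.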
